A study of Mus musculus with 26 samples.

Results

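The genes followed here were 9 immediate early genes (Fos, Fosb, Jun, Junb, Egr1, Egr3, Ier2, Atf3 and Dusp1) and Rhob, the gene of a small GTPase, 10 of the 55291 gene symbols counted. The early genes were taken as a known class, induced by serum and by stress. Rhob was selected on its measured fall in Grb10 pA ESCs, so its values there are a description and were given no test. Mouse E14 ESCs and the NPCs made from them were sequenced in 26 libraries of 10 groups, in 2 experiments on how CTCF, an architectural DNA-binding protein, depends on RNA.

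In the rescue experiment (8 libraries, 2 per group), every line carried endogenous CTCF fused to mAID-eGFP, an OsTir1(F74G) transgene, a Hb9 reporter and a doxycycline-inducible Flag-Halo CTCF transgene at Tigre, either WT or lacking zinc finger 1 (ΔZF1). All 4 groups (ESC-WT and NPC-WT, ESC-ΔZF1 and NPC-ΔZF1) received 1 µM 5-Ph-IAA and 1 µg/ml doxycycline for 24 hours, so that the controls were degron cells too. Each rescue protein was represented by 1 clone, and clone and protein cannot be told apart. In the truncation experiment (18 libraries, 3 per group), ESCs and NPCs of the parental E14 line (WT) were compared with lines in which a cassette with eGFP and an SV40 polyadenylation signal, homozygous downstream of the first coding exon of Podxl or Grb10, cut the RNA short (Podxl pA and Grb10 pA). Both were edited clones set against the parental line, with no clone given in the labels, so clone and truncation cannot be told apart. All cells were kept in N2B27 medium, described with 3% serum. ESCs also received LIF, CHIR99021 and 1 µM PD0325901, an inhibitor of MEK, whereas for NPCs, taken at day 2 of differentiation, N2B27 alone is described, so that medium and cell type cannot be told apart in any comparison of NPCs with ESCs. All cells were dissociated with TrypLE before RNA was extracted.

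Immediate early genes are switched on within minutes of a signal by transcription factors that are already present, such as SRF with its ELK or MRTF partners and CREB, without new protein being made. Many encode transcription factors: FOS and JUN proteins pair into AP-1, EGR proteins bind GC-rich promoters, and ATF3 is a bZIP factor of the stress response. Others feed back on the signal, such as DUSP1, a phosphatase that switches MAP kinases off. RHOB is a small GTPase of endosomes and the actin cytoskeleton, and unlike RHOA its gene is itself induced early by growth factors and DNA damage.

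The promoters of 4 members that were called lower in NPC-ΔZF1 are shown as examples. Of the motifs searched, that of Rhob held only CCAAT, and the SRF site was not among those searched. Each sequence is the 150 bases upstream of the RefSeq start on GRCm38.p6, on the strand of the gene, with the matches of the motifs searched in capitals.
Fos, chr12:85473740-85473889, plus strand: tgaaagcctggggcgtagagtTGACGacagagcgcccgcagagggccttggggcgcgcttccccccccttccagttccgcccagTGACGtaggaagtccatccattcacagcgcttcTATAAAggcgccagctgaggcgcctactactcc
Jun, chr4:95052223-95052372, minus strand: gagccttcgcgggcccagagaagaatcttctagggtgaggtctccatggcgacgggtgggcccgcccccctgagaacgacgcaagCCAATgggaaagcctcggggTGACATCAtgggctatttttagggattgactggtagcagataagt
Dusp1, chr17:26508473-26508622, minus strand: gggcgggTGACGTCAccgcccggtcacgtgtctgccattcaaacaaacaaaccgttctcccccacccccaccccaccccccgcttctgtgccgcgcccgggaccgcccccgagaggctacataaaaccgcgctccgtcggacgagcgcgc
Rhob, chr12:8500010-8500159, minus strand: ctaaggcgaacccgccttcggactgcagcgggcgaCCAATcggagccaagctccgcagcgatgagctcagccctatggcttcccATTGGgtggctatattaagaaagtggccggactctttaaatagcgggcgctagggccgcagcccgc

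The motifs were TGACG (the core of the cAMP response element, CRE), TGACGTCA (the full CRE, which holds the core on both strands), TGACTCA (AP-1), TGACATCA (a variant of the CRE and AP-1 sites), CCAAT and TATAAA, on either strand of the 250 bases upstream. RefSeq promoters were at hand for 7 of the 10 members (Atf3, Dusp1, Fos, Fosb, Jun, Junb and Rhob). Fos held TGACG at -129 and -66 and TATAAA at -33, counted from the start to the first base of the match. Dusp1 held the full CRE at -143, which 1.55% of the 32851 promoters of the table had, and a further TGACG at -191. TGACG was also in the promoters of Fosb (-60), Junb (-106) and Atf3 (-7, on the opposite strand), and in 17.8% of all promoters. Jun held TGACATCA at -45 (2.93% of all promoters) and CCAAT at -65. Rhob held CCAAT at -115 and, on the opposite strand, at -66, and Junb at -36 (33.8% of all promoters). TATAAA was in 12.4% of all promoters, and TGACTCA, in 4.46% of all promoters, had no exact match in the 7 windows.

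The members lie on 8 chromosomes of GRCm38. Fos (chr12:85473890-85477273) and Rhob (chr12:8497661-8500009) share chromosome 12 at a distance, and Junb (chr8:84974484-84978718) and Ier2 (chr8:84661331-84662852) lie close together on chromosome 8. The others are Fosb (chr7:19302696-19310051), Jun (chr4:95049034-95052222), Egr1 (chr18:34859823-34864984), Egr3 (chr14:70077203-70082614), Atf3 (chr1:191170296-191218039) and Dusp1 (chr17:26505590-26562128). The counting ignored strand, and 7.28% of the exonic bases of Jun overlap the antisense gene Junos, 7.52% of those of Junb overlap Prdx2 and 0.332% of those of Dusp1 overlap Ergic1, so reads there cannot be assigned to either gene.

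The rescue libraries held 6425179 to 28730435 counts each and the truncation libraries 1907505 to 8845087. Summed CPM of 8 pluripotency markers fell from between 5313 and 6043 in rescue ESCs to between 393 and 573 in NPCs, and from between 4175 and 4648 to between 736 and 980 in the truncation experiment. Summed CPM of 6 neural progenitor markers was higher in NPCs than in ESCs of every line except Grb10 pA, in which the NPCs (49.4 to 54.1) overlapped the ESCs (47.3 to 50.7), and of these markers Fabp7 was at 0 in 8 of the 10 groups. Podxl was at 20.8 to 24.3 CPM in NPC Podxl pA against 232 to 259 CPM in NPC WT, and Grb10 was at 52.2 to 59.4 CPM in NPC Grb10 pA against 769 to 814 CPM in NPC WT. Of the 10 members, 8 were higher in NPC-WT replicate 2 than in replicate 1, and 7 were highest in replicate 2 of ESC Grb10 pA, so results on these groups are also given without 1 of their libraries.

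**Figure D1:**
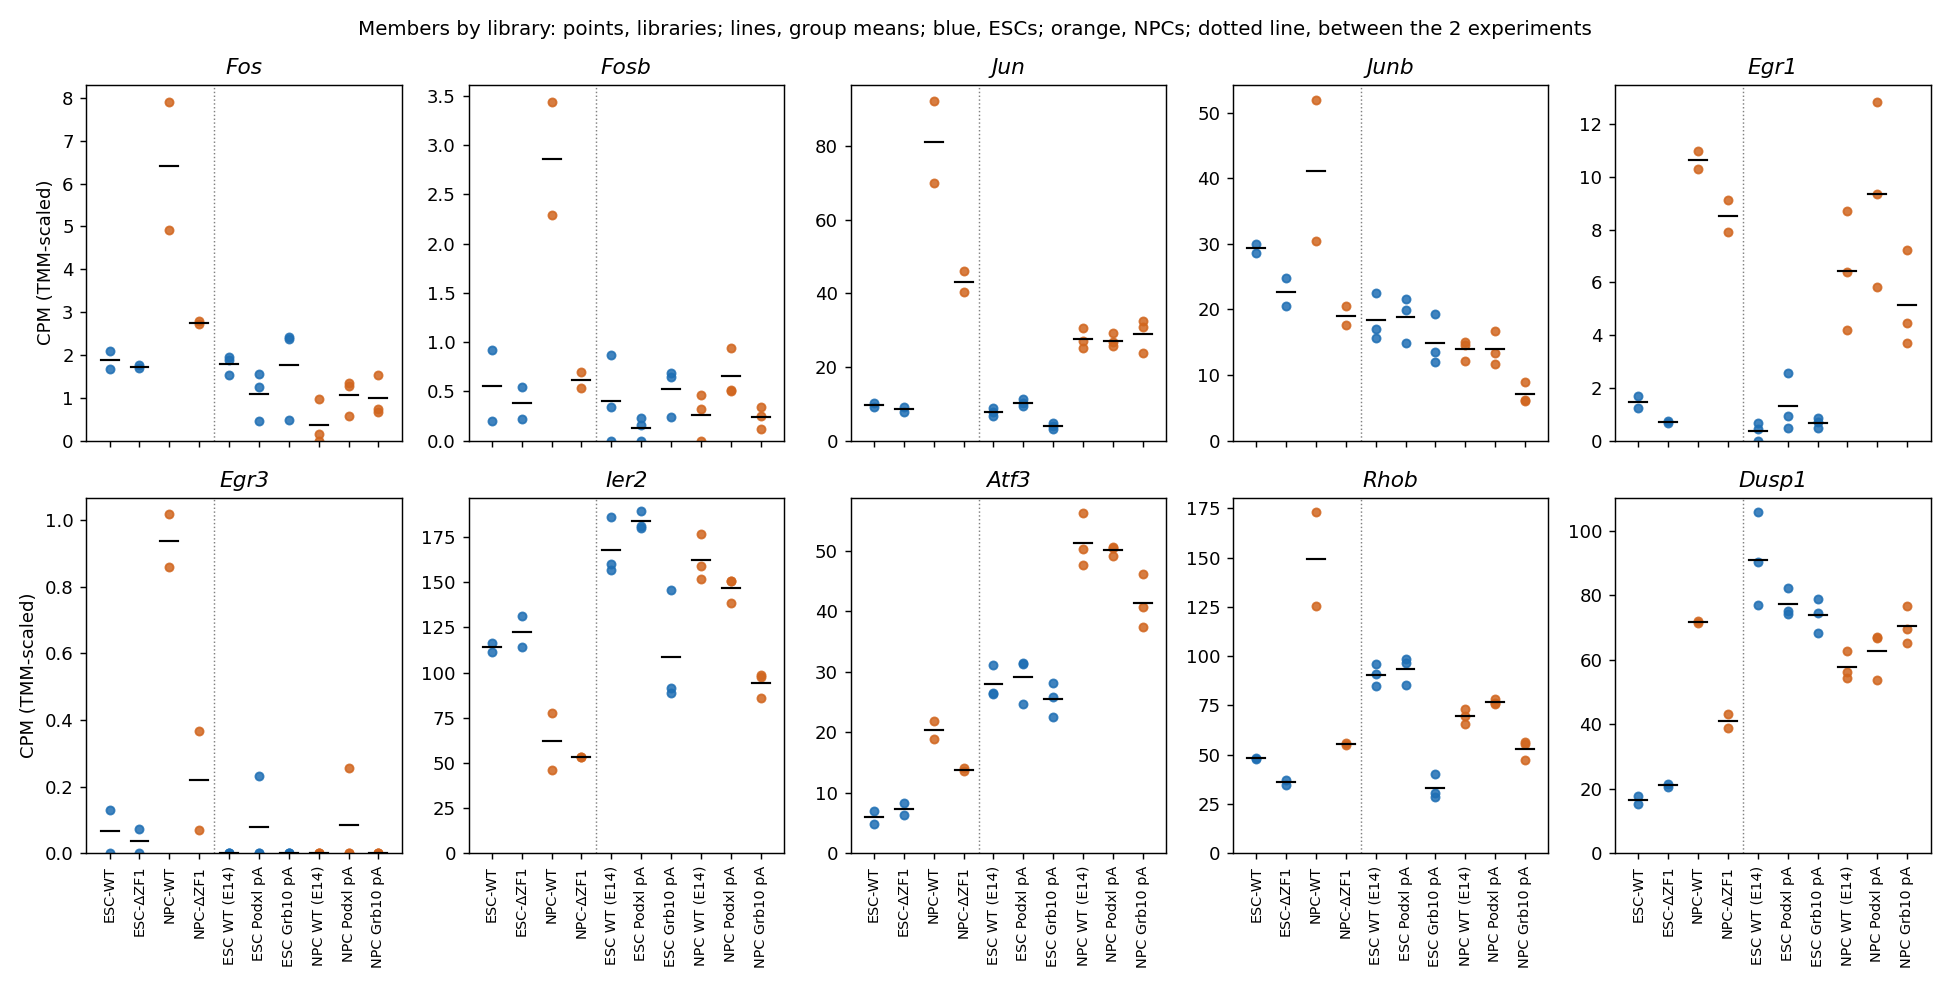
CPM (counts per 1000000 of the TMM-adjusted library size, linear axes from 0) of each member in each of the 26 libraries, with points for libraries and black lines for group means; ESCs are blue and NPCs orange. Rhob sits between 125.7 and 173.3 CPM in NPC-WT and between 54.9 and 55.8 CPM in NPC-ΔZF1, and Egr3 is at 0 in 16 of the 18 truncation libraries.

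Levels differed widely among the members. Per kilobase of exon, Ier2 was the most abundant member in ESCs of the parental E14 line, with a mean of 110.1 CPM per kilobase, ahead of Rhob (38.6), Dusp1 (27.5), Atf3 (13.0), Junb (7.98) and Jun (2.40). Fos (0.758 CPM per kilobase), Egr1 (0.0833) and Fosb (0.0649) were near the floor, and Egr3 had no count. In NPC-WT the order by mean CPM per kilobase was Rhob (63.7), Ier2 (40.8), Jun (25.4), Dusp1 (21.6), Junb (17.9), Atf3 (9.46), Fos (2.73), Egr1 (2.37), Fosb (0.459) and Egr3 (0.213). The tables were normalized separately, so levels were tested only within an experiment. All 10 members passed edgeR's filter on low counts in the rescue experiment, and 7 passed in the truncation experiment, where Fos (0 to 11 counts per library), Fosb (0 to 5) and Egr3 (0 or 1) did not. A count of 0 allows up to 0.338 to 1.54 CPM in these 18 libraries, which covers counting error only.

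To determine whether the loss of zinc finger 1 was accompanied by a change of early genes, NPC-ΔZF1 was compared with NPC-WT. Rhob, the 4 AP-1 genes and the feedback phosphatase gene Dusp1 were lower in NPC-ΔZF1, and no member was called higher. A gene was called where edgeR's quasi-likelihood test gave a p-value, adjusted by Benjamini-Hochberg over all genes tested, of at most 0.05 and the log2 fold change was at least 0.5 in size. By this rule 6 of the 10 members were called, all 6 lower (Fos, Fosb, Jun, Junb, Rhob and Dusp1), beside 17.6% of the 16641 genes tested. The median log2 fold change was -1.0 over the 10 members and -0.0026 over all genes tested. With 2 libraries per group from cultures whose independence the labels do not describe, the p-values measure only the spread between these libraries. In bulk RNA, fewer cells expressing a gene and less RNA per cell cannot be told apart.

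Rhob was at 125.7 and 173.3 CPM in the NPC-WT libraries and at 55.8 and 54.9 CPM in the NPC-ΔZF1 libraries. Both mutant libraries lay far below both controls, and the log2 fold change was -1.43 (SE 0.15, adjusted p = 0.000273 in edgeR's test), a 2.70-fold fall. Without NPC-WT replicate 1 or 2, or either mutant library, it lay between -1.65 and -1.20.

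Among the AP-1 genes, Jun, which encodes a partner of FOS proteins, was at 70.0 and 92.1 CPM in NPC-WT and at 40.3 and 45.9 CPM in NPC-ΔZF1. The groups did not overlap, and Jun fell by 0.91 on the log2 scale (SE 0.15, adjusted p = 0.00335, edgeR). Junb, which encodes a JUN protein that can also oppose JUN at AP-1 sites, was at 30.4 and 51.9 CPM in NPC-WT and at 17.6 and 20.6 CPM in NPC-ΔZF1. It fell by 1.10 on the log2 scale (SE 0.22, adjusted p = 0.00816, edgeR), although the control libraries were themselves far apart. Fos was at 4.92 and 7.91 CPM against 2.71 and 2.80 CPM (log2 fold change -1.18, SE 0.26, adjusted p = 0.0107, edgeR). Fosb was low throughout, at 2.29 and 3.44 CPM in NPC-WT and 0.529 and 0.699 CPM in NPC-ΔZF1 (log2 fold change -2.18, SE 0.48, adjusted p = 0.0116, edgeR). All 4 AP-1 genes had every mutant library below every control library, and how many of all genes did so was not counted. In a fit of these 2 groups alone, Fos and Junb lost their calls (adjusted p = 0.0563 and 0.0564).

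Dusp1 varied little between replicates, at 71.4 and 71.9 CPM in NPC-WT and at 43.2 and 38.8 CPM in NPC-ΔZF1. It fell by 0.80 on the log2 scale (SE 0.12, adjusted p = 0.00169, edgeR). Atf3 was at 18.9 and 21.9 CPM against 14.03 and 13.54 CPM, with a log2 fold change of -0.56 (adjusted p = 0.0525, edgeR) that missed the threshold. Egr1 was at 10.97 and 10.31 CPM against 9.13 and 7.91 CPM (log2 fold change -0.32, adjusted p = 0.206, edgeR), so that its groups did not overlap but the difference did not pass. Ier2 was at 46.2 and 77.9 CPM in NPC-WT and 53.0 and 53.4 CPM in NPC-ΔZF1, and its groups overlapped. Egr3 had 34 counts over the 2 NPC-WT libraries and 12 over the 2 NPC-ΔZF1 libraries, a ratio of CPM of 0.224 (exact 95% interval 0.106 to 0.443 for counting error only), and its adjusted p in edgeR was 0.0513.

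Without NPC-ΔZF1 replicate 1, only Rhob and Dusp1 kept their calls (2 members), and without NPC-WT replicate 1, 8 members were called, with Ier2 (log2 fold change -0.55) and Atf3 (-0.67) added. The rescue clones also differed in another cell type's genes. All 10 extraembryonic endoderm markers were called higher in NPC-ΔZF1, with a summed level of 2328 to 2347 CPM against 294 to 320 CPM in NPC-WT and none at 0, and their part in the fall of the early genes was not tested. The same markers were also present in truncation NPCs, at 482 to 617 CPM in NPC WT. They summed to 903 to 977 CPM in NPC Podxl pA and 416 to 527 CPM in NPC Grb10 pA. In ESC WT they summed to 83.5 to 102 CPM. Counts of Ctcf, which do not separate the transgene from the endogenous gene, were also higher in NPC-ΔZF1 (785 to 798 CPM) than in NPC-WT (449 to 475 CPM), and the part of this difference was not tested either.

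**Figure D2:**
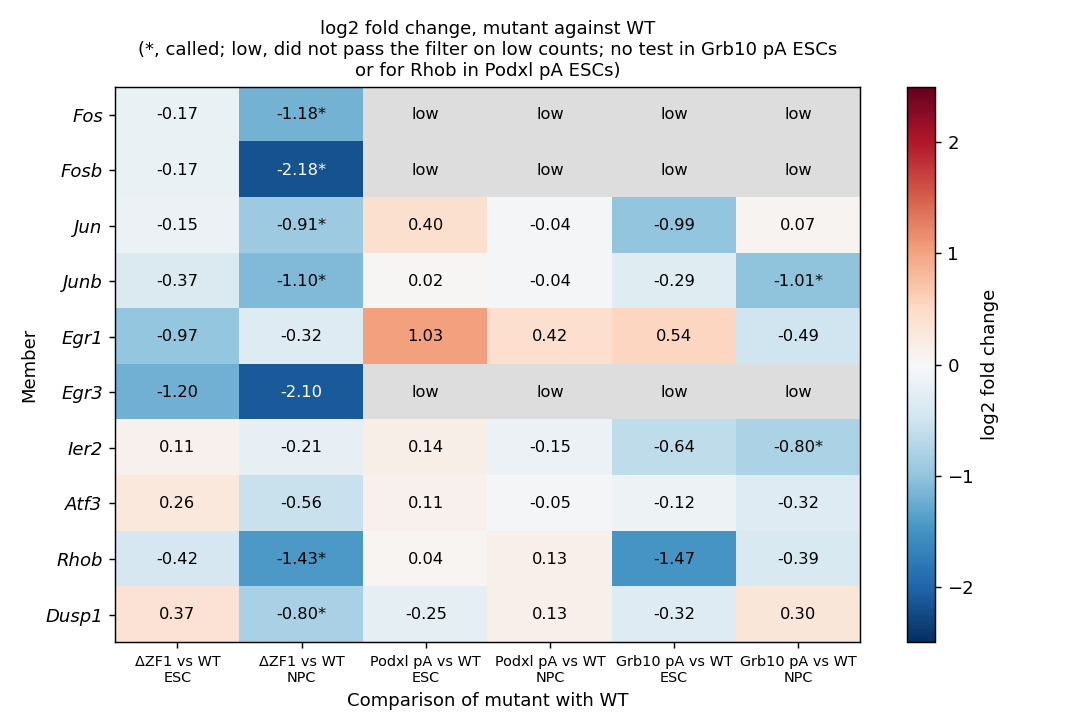
log2 fold change of each member in each comparison of a mutant with WT, with colour on a linear scale from -2.5 to 2.5; an asterisk marks a call, and "low" a member that did not pass the filter. The column of ΔZF1 against WT in NPCs holds 6 calls, all lower, whereas the columns of Podxl pA hold none.

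Other genes of the early response moved in both directions in NPC-ΔZF1. Of 33 further early response genes tested, 15 were called, 11 lower and 4 higher, with a median log2 fold change of -0.43. The largest changes were in Egr4 (log2 fold change -2.20), Ier5l (-1.49) and Fosl2 (-1.31), and the last, an AP-1 gene of the FOS family, was at a mean of 62.2 CPM in NPC-WT and 25.1 CPM in NPC-ΔZF1. Of the 9 further MAP kinase phosphatase genes, 6 were called, 4 lower and 2 higher, with the largest changes in Dusp14 (-1.60), Dusp8 (-1.34) and Dusp6 (1.17), which encodes the cytoplasmic phosphatase of ERK. Dusp14 lies on chromosome 11, which holds no member, and with chromosome 11 left out of the fit 7 members were called in place of 6. Of 18 genes that act upstream of the early response, Mrtfa, which encodes an actin-sensing partner of SRF, was the only one called (log2 fold change -0.79, mean 47.5 against 82.3 CPM). Of 12 further stress response genes, 6 were called. The inducible HSP70 genes Hspa1a (-1.57) and Hspa1b (-1.34), whose reads may be split between near-identical copies, were lower, and Chac1 (2.01), Hspa5 (0.66), Atf4 (0.56) and Asns (0.52), genes of the unfolded protein and amino acid responses, were higher.

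In ESCs none of the 10 members was called in ESC-ΔZF1 against ESC-WT by edgeR or by DESeq2, and 3 had an unadjusted p under 0.05 in edgeR (Egr1, Rhob and Dusp1), beside 3.61% of all genes called. Rhob was at 48.0 and 48.5 CPM in ESC-WT and at 34.8 and 37.2 CPM in ESC-ΔZF1, with no overlap, a log2 fold change of -0.42 (SE 0.15) and an adjusted p of 0.169 in edgeR. Dusp1 was at 17.6 and 15.4 CPM in ESC-WT and at 20.5 and 21.6 CPM in ESC-ΔZF1, so that its mutant libraries were the higher ones (log2 fold change 0.37, adjusted p = 0.173, edgeR). Egr1 was at 1.68 and 1.24 CPM against 0.734 and 0.675 CPM (log2 fold change -0.97, adjusted p = 0.168, edgeR). Egr3 had 2 counts in ESC-WT and 1 in ESC-ΔZF1, too few to compare (ratio 0.385, exact 95% interval 0.00652 to 7.39). Of the 33 other early response genes tested, edgeR called 0 in ESCs, with 7 at an unadjusted p under 0.05, and DESeq2 called 2. Among the 18 upstream genes edgeR called Mapk9 alone in ESCs (log2 fold change -0.51, adjusted p = 0.0471), a gene of chromosome 11 that encodes the kinase JNK2. DESeq2 called 0 of them.

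The effect of ΔZF1 was then compared between cell types with a contrast of the 4 group means. Rhob was lower in mutant cells by more in NPCs than in ESCs (log2 difference -1.01, SE 0.21, adjusted p = 0.0334, edgeR), and Dusp1 had a log2 difference of -1.17 (SE 0.18, adjusted p = 0.0103, edgeR). These 2 members were the only ones called, beside 2.70% of all genes tested. For Fos (-1.01), Jun (-0.76), Junb (-0.73) and Atf3 (-0.82) the log2 differences had unadjusted p-values under 0.05 and did not pass after adjustment (adjusted p from 0.148 to 0.270, edgeR). Both calls were lost in several fits that left a group with 1 library. The log2 differences in those fits stayed close to those of the full fit. Rhob lost its call without ESC-WT replicate 1 or 2, ESC-ΔZF1 replicate 1 or 2, or NPC-ΔZF1 replicate 1 or 2 (log2 difference between -1.07 and -0.997, adjusted p from 0.130 to 0.178), and Dusp1 without ESC-WT replicate 2, ESC-ΔZF1 replicate 1 or 2, or NPC-ΔZF1 replicate 1 or 2 (between -1.25 and -1.09, adjusted p from 0.0671 to 0.0955). Without NPC-WT replicate 1, 7 members were called, and without NPC-WT replicate 2, 4. Of the 33 other early response genes, 6 were called in this contrast, 5 with a negative difference and 1 with a positive difference, and the largest were those of Arc (-1.58), Gadd45b (-1.39) and Csrnp1 (-1.34). Of the further phosphatase genes Dusp4 (1.497) and Dusp14 (-1.47) were called, and of the stress response genes Chac1 (1.56) and Hspa1b (-1.29). Of the 18 upstream genes edgeR and DESeq2 called 0, with 5 at an unadjusted p under 0.05 in edgeR.

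To place these differences beside differentiation itself, NPCs were compared with ESCs of the same line. In the WT rescue line 9 of 10 members were called, beside 41.9% of all genes: 8 were higher in NPCs (Fos, Fosb, Jun, Egr1, Egr3, Atf3, Rhob and Dusp1) and Ier2 was lower. The NPC-WT libraries are shared with the comparison of NPC-ΔZF1 above. Jun rose from 10.09 and 9.001 CPM in ESC-WT to 70.0 and 92.1 CPM in NPC-WT (log2 fold change 3.10, SE 0.18, adjusted p = 1.2e-06, edgeR). Egr1 rose from 1.68 and 1.24 CPM to 10.97 and 10.31 CPM (log2 fold change 2.94, SE 0.24, adjusted p = 8.45e-06, edgeR). Both genes thus had NPC libraries several times above every ESC library.

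Dusp1 rose from 17.6 and 15.4 CPM to 71.4 and 71.9 CPM (log2 fold change 2.13, SE 0.13, adjusted p = 1.48e-06, edgeR). Rhob rose 3.09-fold (log2 fold change 1.63, SE 0.15, adjusted p = 1.78e-05, edgeR). Atf3 was at 4.89 and 6.91 CPM in ESC-WT and at 18.9 and 21.9 CPM in NPC-WT (log2 fold change 1.73, adjusted p = 9.89e-05, edgeR). Fos (1.69) and Fosb (2.67) rose as well on the log2 scale, and Fosb lost its call without ESC-WT replicate 2 (log2 fold change 1.60, adjusted p = 0.100, edgeR). Egr3 had 2 counts in ESC-WT and 34 in NPC-WT, a ratio of CPM of 10.6 (exact 95% interval 2.71 to 90.7), and lost its call without either ESC-WT library (adjusted p = 0.0933 without replicate 1 and 0.0905 without replicate 2). Ier2 moved the other way, from 111.3 and 116.5 CPM to 46.2 and 77.9 CPM (log2 fold change -0.89, SE 0.20, adjusted p = 0.00476, edgeR). Junb, at 30.0 and 28.6 CPM in ESC-WT and 30.4 and 51.9 CPM in NPC-WT, was not called (log2 fold change 0.48, adjusted p = 0.110, edgeR).

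In the ΔZF1 rescue line 6 of 10 members were called, beside 37.3% of all genes. Jun (log2 fold change 2.34), Egr1 (3.58), Atf3 (0.91), Rhob (0.62) and Dusp1 (0.96) were higher in NPC-ΔZF1 than in ESC-ΔZF1, and Ier2 (-1.20) was lower. Atf3 lost its call without ESC-ΔZF1 replicate 2 (0.69, adjusted p = 0.0608) and Rhob without ESC-ΔZF1 replicate 1 (0.56, adjusted p = 0.0683).

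In the WT rescue line, 24 of 33 further early response genes were called, 22 higher and 2 lower in NPCs, beside 41.9% of all genes, led by Fosl2 (log2 fold change 4.30) and, in the other direction, Sgk1 (-3.30), with Ccn1, a matricellular target of SRF and YAP, at 3.10. Of 9 further MAP kinase phosphatase genes 8 were called, all higher, led by Dusp8 (3.87), Dusp5 (2.88) and Dusp10 (2.80). Among 18 upstream genes, Mrtfb (1.10), Mrtfa (0.89), Srf (0.87) and Crebbp (0.57) were called, all higher. Of 12 further stress response genes 4 were higher and 4 lower, with the largest changes in Chac1 (-3.08), Hspa1a (2.92) and Hspa1b (2.00). In the ΔZF1 rescue line, 19 of the 33 early response genes were called, 16 higher and 3 lower, with the largest changes in Fosl2 (2.85), Ccn1 (2.71) and Ccn2 (2.61), beside 37.3% of all genes. The phosphatase genes called there were 6, all higher, led by Dusp4 (3.33), Dusp8 (2.96) and Dusp10 (2.62). Of the upstream genes Mrtfb (0.81) and Creb1 (0.55) were higher and Elk1 (-0.62) was lower, and of the stress response genes 4 were higher and 4 lower, with the largest changes in Chac1 (-1.53), Trib3 (-1.39) and Hspa1a (1.26).

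In the parental E14 line the members behaved less uniformly, with 3 called higher and 1 called lower in NPCs among the 6 that were tested, beside 32.8% of all genes. Jun rose from 7.63, 8.73 and 6.60 CPM in ESCs to 25.3, 30.6 and 27.0 CPM in NPCs (log2 fold change 1.83, SE 0.17, adjusted p = 1.16e-09, edgeR). Egr1 was at 0.436, 0.685 and 0 CPM in ESCs and rose to 4.21, 8.71 and 6.40 CPM (log2 fold change 3.82, SE 0.56, adjusted p = 2.67e-06, edgeR). Atf3 rose from 26.4, 26.5 and 31.1 CPM to 47.6, 56.2 and 50.2 CPM (log2 fold change 0.91, SE 0.12, adjusted p = 6.94e-07, edgeR). In each of these 3 genes, every NPC library lay above every ESC library, a separation that was not counted over all genes.

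Dusp1 fell instead, from 105.8, 90.4 and 76.9 CPM in E14 ESCs to 62.8, 56.2 and 54.3 CPM in NPCs (log2 fold change -0.67, SE 0.11, adjusted p = 1.73e-05, edgeR). Rhob was at 91.1, 84.9 and 95.9 CPM in ESCs and at 69.6, 73.3 and 65.7 CPM in NPCs, a log2 fold change of -0.37 with no test, since these ESC libraries were among those that selected Rhob. Ier2 was at 156.6, 160.3 and 186.0 CPM in ESCs and at 151.8, 176.5 and 159.1 CPM in NPCs, and its groups overlapped. Junb had a log2 fold change of -0.34 (adjusted p = 0.177, edgeR). Fos, which did not pass the filter, was at 1.53, 1.88 and 1.94 CPM in ESCs and at 0.971, 0.153 and 0 CPM in NPCs, from at most 11 counts per library. Fosb, which did not pass either, had means of 0.405 CPM in ESCs and 0.261 CPM in NPCs, from at most 5 counts per library. The means of Rhob, Dusp1, Junb, Fos and Fosb therefore lay lower in NPCs than in ESCs here and higher in the WT rescue line. The difference between the 2 experiments was not tested, because they were normalized apart.

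In Podxl pA 3 members were called, all higher in NPCs (Jun at a log2 fold change of 1.39, Egr1 at 3.21 and Atf3 at 0.75), of 7 tested and beside 31.8% of all genes. Rhob (-0.27, adjusted p = 0.0272), Dusp1 (-0.30, adjusted p = 0.0290) and Ier2 (-0.33, adjusted p = 0.0256) passed edgeR's adjusted p but not the cutoff on the fold. In Grb10 pA 4 of 6 members tested were called, beside 34.6% of all genes, with Jun (2.89), Egr1 (2.78) and Atf3 (0.71) higher and Junb (-1.05) lower in NPCs, and Rhob, not tested, had a log2 fold change of 0.72. Jun, Egr1 and Atf3 were thus called higher in NPCs in each of the 5 lines. Between 16.5% (E14) and 22.0% (WT rescue) of all genes were called higher per line, and how many were so in all 5 was not counted.

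**Figure D3:**
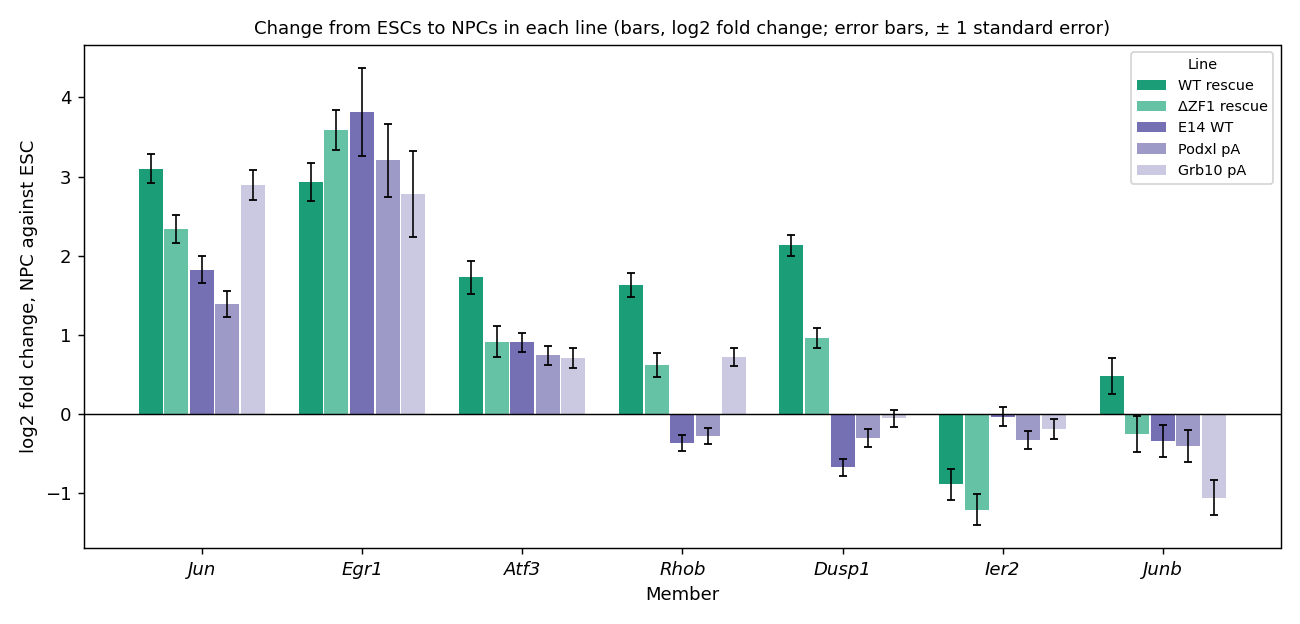
log2 fold change from ESCs to NPCs for 7 members in the 5 lines, with bars for the fold change and error bars of ± 1 standard error. Jun, Egr1 and Atf3 are above 0 in all 5 lines, whereas Rhob and Dusp1 are above 0 in both rescue lines (1.63 and 2.13 in WT rescue) and below 0 in E14 WT (-0.37 and -0.67).

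Of the further early response genes, 14 of 28 tested were called between NPCs and ESCs of the E14 line, 10 higher and 4 lower. The largest changes were in Ccn2 (log2 fold change 4.46), Myc (2.77) and Plk2 (1.93). Among 8 further MAP kinase phosphatase genes tested, 5 were called, all higher: Dusp4 (4.75), Dusp6 (3.27), Dusp8 (1.11), Dusp5 (0.65) and Dusp7 (0.50). Of 11 further stress response genes tested, Hspa5 (1.37), Chac1 (0.80) and Sesn2 (0.72) were called, all higher in NPCs, and of 18 upstream genes Creb1 (0.51) was higher and Elk3 (-1.29) and Elk4 (-0.64) were lower. Dusp4 and Dusp6 are known as feedback targets of ERK, the kinase that MEK activates. In Podxl pA, 15 of the 28 early response genes were called, 11 higher and 4 lower, led by Myc (3.12), Ccn2 (3.10) and Ccn1 (1.76). The phosphatase genes called in Podxl pA were 5 higher and 1 lower, led by Dusp4 (4.83), Dusp6 (3.19) and Dusp8 (1.14), while Hspa5 (1.09), Chac1 (0.91) and Sesn2 (0.68) were higher and Elk3 (-0.56) and Elk4 (-0.52) lower. In Grb10 pA, 15 of the 28 were called, 12 higher and 3 lower, led by Ccn2 (4.32), Myc (3.91) and Ccn1 (3.32). The phosphatase genes called in Grb10 pA were 6, all higher, led by Dusp4 (4.28), Dusp6 (3.19) and Dusp8 (3.18), while Chac1 (1.05) and Hspa5 (0.50) were higher and Elk3 (-1.61) and Elk4 (-0.82) lower.

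Truncation of the Podxl RNA was accompanied by no called change of a member. In ESCs 0 of 6 members tested were called by edgeR and by DESeq2, 1 (Dusp1) had an unadjusted p under 0.05, and 0.339% of all genes were called. In NPCs 0 of 7 were called by either tool, none had an unadjusted p under 0.05 in edgeR, and 0.550% of all genes were called. Dusp1 was at 82.4, 75.1 and 74.2 CPM in ESC Podxl pA, with the range of ESC WT (76.9 to 105.8 CPM) overlapping it, and had a log2 fold change of -0.25 (adjusted p = 0.494, edgeR). Jun was at 9.25, 11.3 and 10.3 CPM in ESC Podxl pA and at 7.63, 8.73 and 6.60 CPM in ESC WT, with no overlap (log2 fold change 0.40, SE 0.20, adjusted p = 0.551, edgeR). Rhob was at 98.3, 85.1 and 96.3 CPM in ESC Podxl pA, a log2 fold change of 0.04 given with no test. In NPC Podxl pA it was at 78.4, 75.7 and 76.4 CPM, each above the NPC WT libraries (log2 fold change 0.13, SE 0.10, adjusted p = 0.708, edgeR). The contrast between the cell types called 0 of 6 members by edgeR and by DESeq2, with 1 (Dusp1, log2 difference 0.37) at an unadjusted p under 0.05, beside 0.0980% of all genes. Of the 28 further early response genes tested, edgeR called 0 in Podxl pA ESCs, with 3 at an unadjusted p under 0.05 and 1 called by DESeq2, and 0 in NPCs, with 4 at an unadjusted p under 0.05 and 0 called by DESeq2. The contrast between the cell types called 1 of the 28 by either tool, Ccn2 in edgeR (log2 difference -1.36, adjusted p = 0.0111), with 6 at an unadjusted p under 0.05. Of 8 extraembryonic endoderm markers tested, 4 were called higher in NPC Podxl pA than in NPC WT, led by Dab2 (log2 fold change 1.04). Their part in the levels of the members was not tested.

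In ESC Grb10 pA, the contrast that selected Rhob, Rhob was at 28.6, 40.0 and 30.6 CPM, against 91.1, 84.9 and 95.9 CPM in ESC WT. The log2 fold change was -1.47, a 2.78-fold lower level, and without ESC Grb10 pA replicate 2, the highest of its group, it was -1.62. Jun was at 3.25, 4.83 and 4.03 CPM against 7.63, 8.73 and 6.60 CPM (log2 fold change -0.99), again without overlap. Ier2 was at 88.7, 145.7 and 91.2 CPM against 156.6, 160.3 and 186.0 CPM (log2 fold change -0.64), and without replicate 2 the log2 fold change was -0.90. Junb (-0.29), Dusp1 (-0.32), Atf3 (-0.12) and Egr1 (0.54) had overlapping groups. Fos was at 2.38, 2.42 and 0.474 CPM in ESC Grb10 pA, on either side of the ESC WT libraries. Over all genes, 9.09% were called in this contrast, from which nothing is read about the members.

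Beyond the libraries that selected Rhob, NPC Grb10 pA was compared with NPC WT. Junb and Ier2 were called lower, 2 of 7 members tested, beside 16.5% of all genes. Junb was at 5.96, 6.23 and 8.89 CPM in NPC Grb10 pA and at 14.56, 14.97 and 12.13 CPM in NPC WT (log2 fold change -1.01, SE 0.22, adjusted p = 0.00118, edgeR). Ier2 was at 98.7, 97.4 and 85.8 CPM against 151.8, 176.5 and 159.1 CPM (log2 fold change -0.80, SE 0.12, adjusted p = 1.78e-05, edgeR). In both genes every mutant library lay below every control library, a separation that was not counted over all genes. Junb and Ier2 are the members on chromosome 8, and the genes of that chromosome were lower as a whole: the median log2 fold change of its 730 genes tested was -0.48 in NPCs and -0.49 in ESCs, whereas the medians of the other chromosomes that hold members lay between -0.0076 and 0.066. With this shift of chromosome 8 taken out, neither was called in NPCs (Junb -0.53, adjusted p = 0.0816, and Ier2 -0.31, adjusted p = 0.0566, edgeR), and in ESCs their log2 fold changes were 0.19 and -0.15. Counts of Ctcf were also lower in Grb10 pA, at 155 to 161 CPM against 211 to 219 CPM in WT NPCs. In ESCs they were at 134 to 157 CPM against 229 to 233 CPM. The part of this difference was not tested.

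**Figure D4:**
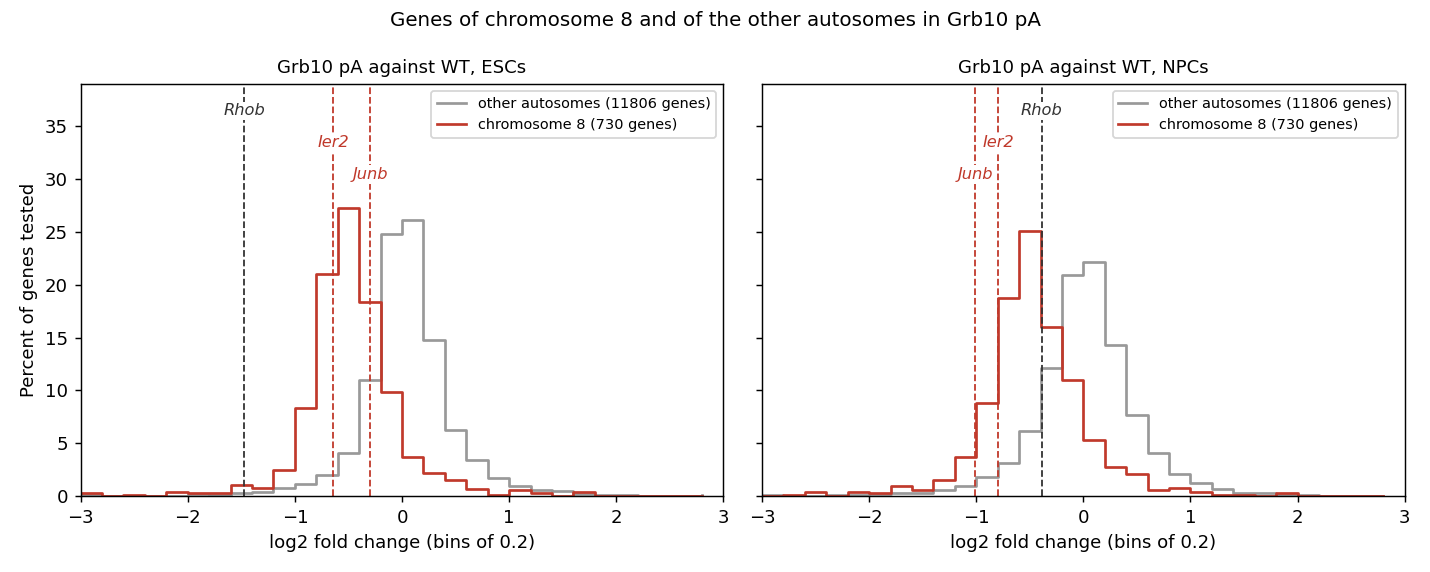
Distribution of log2 fold changes of Grb10 pA against WT in ESCs and NPCs, as the percent of genes tested in bins of 0.2, for 730 genes of chromosome 8 (red) and 11806 genes of the other autosomes (grey), with dashed lines at Junb, Ier2 (both on chromosome 8) and Rhob (on chromosome 12). On chromosome 8, 87.5% of the genes are below 0 in NPCs, against 46.7% on the other autosomes.

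Rhob was at 56.3, 47.1 and 55.6 CPM in NPC Grb10 pA and at 69.6, 73.3 and 65.7 CPM in NPC WT. Its libraries did not overlap, and its log2 fold change of -0.39 (SE 0.10, adjusted p = 0.00587, edgeR) passed on the p-value and stayed under the cutoff on the fold. Atf3 (-0.32, adjusted p = 0.0347) and Dusp1 (0.30, adjusted p = 0.0456) did likewise, in opposite directions. Dusp1 was at 76.7, 65.0 and 69.6 CPM against 62.8, 56.2 and 54.3 CPM, each mutant library above each control. Jun was at 30.9, 23.7 and 32.5 CPM in NPC Grb10 pA, which overlapped NPC WT (log2 fold change 0.07, adjusted p = 0.738, edgeR). Egr1 was at 3.71, 7.23 and 4.45 CPM and overlapped as well. Beside these values, the summed mesoderm markers were at 62.6 to 75.8 CPM in NPC Grb10 pA and at 34.0 to 37.4 CPM in NPC WT, mostly from Eomes (mean 66.6 against 32.9 CPM), the only mesoderm marker called of 2 tested. The neural progenitor markers were lower, at 49.4 to 54.1 CPM against 122 to 131 CPM, and the 8 pluripotency markers summed to 911 to 980 CPM against 736 to 855 CPM. The part of these markers in the differences was not tested.

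The contrast of the Grb10 pA effect between NPCs and ESCs called Jun (log2 difference 1.07, SE 0.28, adjusted p = 0.0194, edgeR) and Dusp1 (0.62, SE 0.16, adjusted p = 0.0164, edgeR), 2 of 6 members tested, beside 5.90% of all genes. This contrast contains the ESC libraries that selected Rhob, for which the log2 difference was 1.08 and no test is given. Jun hardly moved in NPC Grb10 pA (0.07), so its difference is almost wholly the untested value of ESC Grb10 pA (-0.99). Dusp1 draws on both its NPC value (0.30) and its untested ESC value (-0.32). The calls of this contrast are therefore descriptions, and no separate evidence on the members is read from them. Jun lost its call without ESC WT replicate 2 (0.95, adjusted p = 0.0780) or ESC Grb10 pA replicate 1 (0.92, adjusted p = 0.0621), and Dusp1 without ESC WT replicate 1 (0.50, adjusted p = 0.0632) or NPC WT replicate 2 (0.60, adjusted p = 0.0520). Of the 28 early response genes 9 were called in this contrast, 7 with a positive difference and 2 with a negative one, led by Gadd45b (1.80), Ccn1 (1.51) and Zfp36 (1.28). Hspa5 (-0.87) was the only one of 11 stress response genes called. EdgeR and DESeq2 called 0 of the 8 phosphatase genes, with 3 at an unadjusted p under 0.05 in edgeR, and 0 of the 18 upstream genes, with 4.

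Other early response genes did not share one direction in NPC Grb10 pA. Of 28 tested, 8 were called, 6 higher and 2 lower, with the largest changes in Gadd45b (log2 fold change 1.65), Ccn1 (1.09) and Ier3 (0.97). Among the phosphatase genes only Dusp4 was called (-0.63), which lies on chromosome 8. Of the 18 upstream genes, edgeR and DESeq2 called 0, with 12 at an unadjusted p under 0.05 in edgeR. Of 11 stress response genes, Ddit3 (1.18) was higher and Hspa5 (-0.74), Hsph1 (-0.63) and Hmox1 (-0.57, on chromosome 8) were lower.

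Over the truncation experiment, Rhob was highest in ESC Podxl pA (mean 93.3 CPM) and ESC WT (90.7 CPM), whose libraries overlapped, and then came NPC Podxl pA (76.8 CPM), NPC WT (69.6 CPM), NPC Grb10 pA (53.0 CPM) and ESC Grb10 pA (33.1 CPM). NPC Podxl pA and NPC WT, neighbours in this order, did not differ beyond their spread by the test above. Over the rescue experiment the order was NPC-WT (149.5 CPM), NPC-ΔZF1 (55.3 CPM), ESC-WT (48.2 CPM) and ESC-ΔZF1 (36.01 CPM), with no overlap between neighbours.

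The genes whose log2 CPM followed Rhob most closely over the 18 truncation libraries were Nsd3 (Pearson r 0.913), Polr2c (0.912), Psmd7 (0.910), Vps4a (0.902) and Hsbp1 (0.898), of 7431 genes compared. All 5 lie on chromosome 8, whereas Rhob lies on chromosome 12, and these libraries include the Grb10 pA lines, in which both Rhob and chromosome 8 were lower. Those most like Egr1 were Cubn (0.957), Usp22 (0.957), Gdpd5 (0.956), Dab2 (0.951) and Adgra2 (0.95), of 7432. Dab2 is also one of the extraembryonic endoderm markers above. These correlations are descriptions, since the libraries share lines and cell types.

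Finally, the spread between replicate libraries was set beside that of all genes, since early genes are known to respond to handling. The biological coefficient of variation of Egr1 was 0.237 in the truncation experiment, at percentile 98.5 of all genes tested, and those of Egr3 (0.295, percentile 96.4) and Fosb (0.249, percentile 92.9) were high in the rescue experiment. Each of these 3 genes had few counts in those libraries, at most 57 for Egr1, 24 for Egr3 and 54 for Fosb. Rhob (0.111, percentile 40.5, and 0.0670, percentile 18.1) and Dusp1 (0.0908, percentile 13.9, and 0.0797, percentile 40.0) varied less between replicates than the median of all genes (0.121 in the rescue and 0.0865 in the truncation experiment). Jun and Atf3 were below that median in both experiments too, and Egr1 in the rescue experiment. Junb (0.161, percentile 74.4, and 0.126, percentile 81.4) and Ier2 (0.145, percentile 67.0, and 0.098, percentile 63.1) were above it in both. Fos was above it in the rescue experiment (0.164, percentile 75.7). High spread was therefore not limited to genes with few counts, since Ier2 had at least 728 per rescue library. Deviations from the group means were correlated between members with a median Pearson r of 0.177 over 45 pairs of members in the 8 rescue libraries (27 positive) and 0.192 over 21 pairs in the 18 truncation libraries (14 positive). The pairs share libraries and are not independent of each other.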

How the data were processed

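RNA was rRNA-depleted and sequenced with a directional kit. The authors aligned reads to mm10 with STAR and counted them per gene with featureCounts without using strand. The deposited values are raw counts, in 2 tables. Another 3 columns of the truncation table match no sample and were not used.

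Each table was fitted whole in edgeR 4.0.16 (R 4.3.3) with TMM normalization, filterByExpr, a mean per group and no replicate term, and groups were compared with quasi-likelihood F tests. This left 16641 and 13268 genes. CPM are counts per 1000000 of the TMM-adjusted library size. In all, 11 comparisons of 2 groups and 3 contrasts between cell types were made. The fit was tested on simulated data. Library totals set the precision: 3 counts equal 0.106 to 0.459 CPM in the rescue and 0.338 to 1.54 CPM in the truncation libraries. Same-numbered libraries did not deviate together (r between -0.254 and 0.121 in the rescue and between -0.439 and 0.254 in the truncation experiment), so numbers were not used as pairs. No 2 libraries of the same group agreed within sampling noise.

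Named were all 10 members and, from lists of early response, upstream, phosphatase and stress genes, those called, or the 3 with the largest change where over 5 were called. The lists are not described in Grb10 pA ESCs, the contrast that selected Rhob, and a further list is not reported here. Genes like Rhob and Egr1 were ranked by Pearson r of log2 CPM (prior count 2) among genes averaging 100 or more normalized counts. Members and lists were chosen with earlier results of these data known. Alternatives were DESeq2 1.42.0, RLE normalization, no filter, only the groups compared, a replicate block, each library left out, a chromosome 8 offset and chromosome 11 left out. GENCODE M21 gave positions and exon lengths.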

Additional observations from a re-analysis of the deposited data

Results flagged for a closer look

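The contrast of the ΔZF1 effect between NPCs and ESCs called Rhob (log2 difference -1.01) and Dusp1 (-1.17), and that of the Grb10 pA effect called Jun (1.07) and Dusp1 (0.62). Each of these calls was lost in some of the fits that left out 1 library. The contrast of the Grb10 pA effect contains the ESC libraries that selected Rhob. Its calls of Jun and Dusp1 are therefore descriptions, and that of Jun rests almost wholly on the untested ESC values. From ESCs to NPCs, the group means of Fos, Fosb, Junb, Rhob and Dusp1 moved in opposite directions in the parental E14 line and in the WT rescue line. Of these, only Dusp1 was called in both lines, and Junb was called in neither. In E14 the log2 fold change was -0.34 for Junb, -0.37 for Rhob and -0.67 for Dusp1, and mean CPM of Fos was lower by 1.41 (difference of means -1.41). Mean CPM of Fosb in E14 was 0.405 in ESCs and 0.261 in NPCs, from at most 5 counts per library. These differences between the experiments were not tested.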

How the results depend on the processing

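With the shift of chromosome 8 taken out, 0 members were called in Grb10 pA against WT in NPCs, in place of 2. RLE normalization, no filter on low counts, DESeq2, only the groups compared, and the fit without chromosome 11 moved no count of called members by over 1.5 times, and no member's called direction reversed under any alternative. The replicate block called 6 members in NPC-ΔZF1 against NPC-WT, as without it, and changed no other call. For NPC-ΔZF1 against NPC-WT, 7 members were called with RLE normalization, 8 with no filter, 6 with DESeq2, 4 with only the groups compared and 7 without chromosome 11, in place of 6. Leaving out each library in turn gave 2 to 8 members for this comparison, 0 to 7 for the contrast of the ΔZF1 effect between cell types, 1 to 2 for that of the Grb10 pA effect, and a log2 fold change of Rhob in ESC Grb10 pA between -1.62 and -1.38. The range for Rhob describes the contrast that selected it and gives its fall no support. DESeq2 gave no adjusted p for Egr3 in NPC-ΔZF1. With no filter, Fos was called lower in NPCs than in ESCs of the E14 line (log2 fold change -2.35, adjusted p = 0.00778, edgeR), from at most 11 counts per library. Depth was low for Fos, Fosb and Egr3 in the truncation experiment, with at most 11, 5 and 1 counts per library.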
